A study of Mus musculus with 3 samples.

Results

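The 9 genes described here encode amino acid transporters that growing T cells depend on: Slc7a1, Slc7a5, Slc7a6 and Slc7a11 of the Slc7 family, Slc3a2, the partner of the last 3, Slc1a4 and Slc1a5 of the Slc1 family, and Slc38a1 and Slc38a2 of the Slc38 family. They were listed by name, and every probe set whose only gene symbol was one of them was taken, which gave 19 of the 45101 probe sets and 9 of the 18194 genes on the array. Expression was measured by Affymetrix array in WR19L, a T-lymphoma line from BALB/c mice that was grown in serum-containing medium without any treatment. The first group is DKO cells, a derivative of WR19L that lacks flippase activity, with stable expression of the Q84E mutant of ATP11A (called Q84E cells). The second is DKO cells that stably express human ATP11A without a mutation (wild-type ATP11A cells), and the third is the parental line, which has neither the knockout nor a transgene. ATP11A is a P4-ATPase, a kind of flippase, which turns phospholipids of the plasma membrane towards the cytosol. The sources used here do not name the knocked-out genes, the promoter of the transgene or whether a line is a single clone. DKO cells without a transgene were not analysed here, so in ratios over parental cells the knockout, the transgene and the history of the line cannot be told apart.

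A T cell that starts to grow takes up far more amino acids than a resting one, to build protein, nucleotides and glutathione. Slc3a2, the heavy chain of CD98, is a single-pass glycoprotein that carries light chains such as Slc7a5, Slc7a6 and Slc7a11 to the plasma membrane, where they exchange amino acids. The Slc1 and Slc38 carriers bring in small neutral amino acids with sodium, and the glutamine they supply can be used by Slc7a5 to draw in leucine, which activates mTORC1. MYC and ATF4, the transcription factor of the amino acid starvation response, are known to induce several of these genes.

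Each group had 1 array, so no value has a replicate, groups could not be tested against each other and p-values are absent. Precision is limited by this number of arrays. In bulk RNA, fewer cells of a type and less RNA per cell cannot be told apart. The deposited signals had the same trimmed mean on every array, and their 75th percentile was 392 for Q84E, 373 for wild-type ATP11A and 369 for parental cells. The only error these arrays give is how far 2 probe sets of one gene differ in their log2 ratio, scaled to 1 probe set. As an SD for the 3 comparisons it was 0.33 to 0.35 for signals from the 50th to the 75th percentile, 0.17 to 0.19 up to the 90th and 0.095 to 0.11 above it. It does not cover differences between cultures of one line. The mouse Atp11a gene had signals of 244 in Q84E, 253 in wild-type ATP11A and 478 in parental cells by its brighter probe set, which need not detect a human transgene. Of 8 T cell markers with a named probe set, 5 lay at or above the 75th percentile on all 3 arrays (Cd3d, Cd3g, Cd247, Thy1 and Cd2), while Cd3e and Cd5 lay under the 50th on all 3. None of the B cell, myeloid, erythroid and fibroblast markers reached the 75th percentile on every array, and the highest signal among those 15 genes was 158. The summed signal of the T cell markers was 17458 in Q84E, 12783 in wild-type ATP11A and 18969 in parental cells, and its part in the results below was not tested.

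By the brightest probe set of each, none of the 9 transporter genes reached a 1.5-fold difference in any comparison. With 1 array per group this does not show that their levels were equal in the 3 lines. For Slc7a11 and Slc1a4, 2 SD of the probe set error is wider than 1.5-fold. For Q84E over wild-type ATP11A cells, 0 of 9 were at least 1.5-fold higher and 0 lower, where 5.78% and 1.97% of the 11596 genes compared were. For wild-type ATP11A over parental cells the members again gave 0 and 0, against 3.51% higher and 3.56% lower over all genes. For Q84E over parental cells they gave 0 and 0, against 7.36% and 2.94%. Counts of 0 are near what genes of this brightness gave: 6 of the 9 members lay at or above the 90th percentile on all arrays, and of the 2629 genes that did, 0.304% were higher and 0.228% lower for Q84E over wild-type ATP11A. The counts over all genes moved with the scaling and the floor. By the authors' scaling they were 670 higher and 229 lower for Q84E over wild-type ATP11A, but 422 and 376 after quantile normalization and 374 and 422 with a common median, where each array is multiplied so that the medians of all probe sets match. The split for Q84E over parental cells was 853 and 341, against 556 and 526 after quantile normalization and 489 and 613 with a common median. With the floor lowered to the 25th percentile, 9.48% of genes were higher and 5.37% lower for Q84E over wild-type ATP11A, and with no floor and a pseudocount of 16 these shares were 7.51% and 4.29%. The members' count was 0 in both directions under all 3 scalings.

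**Figure D1:**
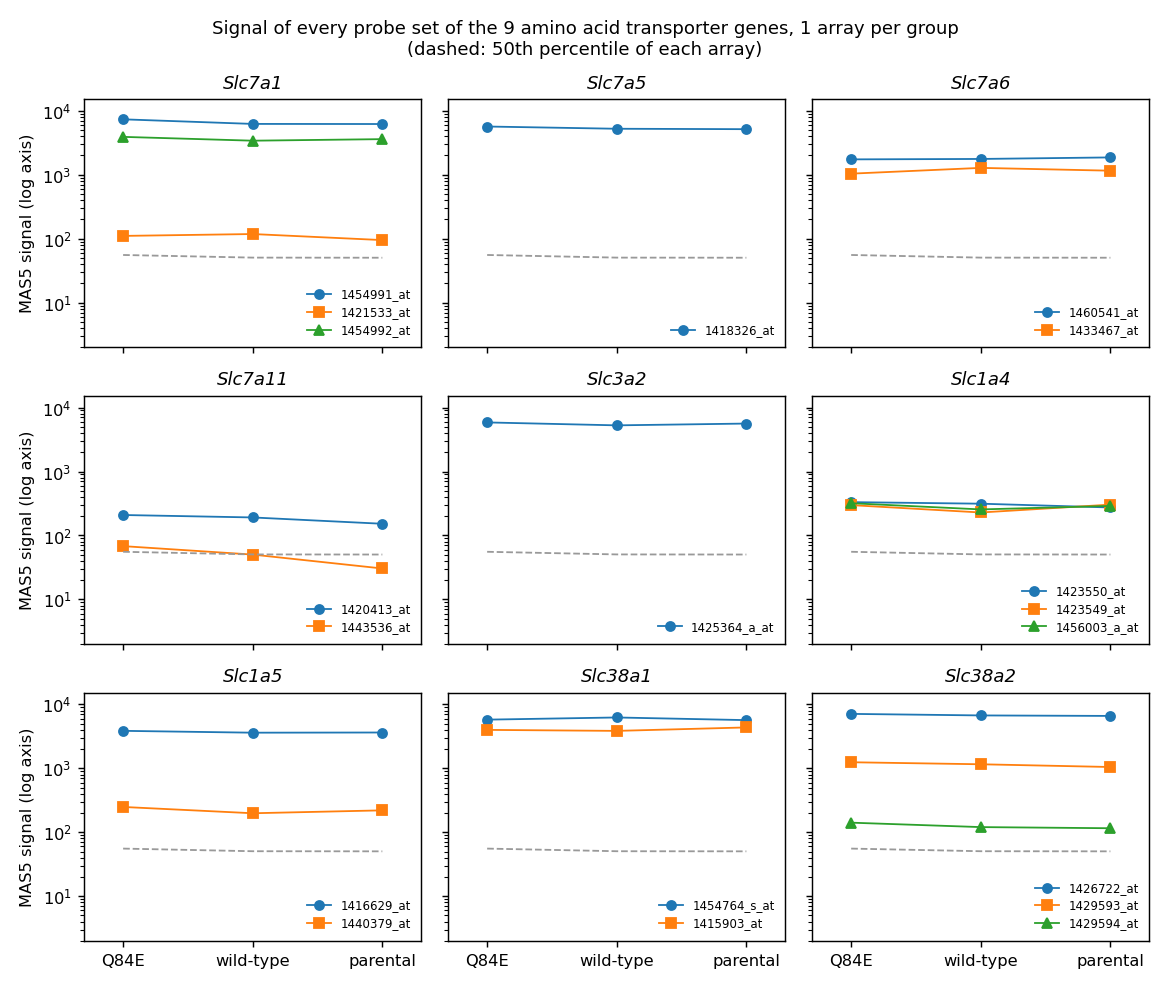
MAS5 signal (log axis) of each of the 19 probe sets in Q84E, wild-type ATP11A and parental cells, 1 array each, with a panel for each gene and a line for each probe set. The dashed line is the 50th percentile of each array, and the brightest probe set of Slc7a1 sits at 7347, 6225 and 6202.

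The CD98 complexes come first. Slc3a2, the heavy chain, had a single probe set (1425364_a_at), with signals of 5856 in Q84E cells, 5270 in wild-type ATP11A cells and 5621 in parental cells. The log2 ratio was 0.15 for Q84E over wild-type ATP11A, -0.093 for wild-type ATP11A over parental, and Q84E stood at 0.059 over parental. The wild-type ATP11A array was thus the lowest, as it was for the summed T cell markers, while with a common median the Q84E over parental ratio was -0.084. These ratios lie within 2 SD of the probe set error at this brightness, but with quantile normalization the first was 0.20, over 2 SD. Slc7a5, or LAT1, is the CD98 light chain that exchanges leucine and other large neutral amino acids. Its single probe set (1418326_at) gave 5669 in Q84E, 5229 in wild-type ATP11A and 5152 in parental cells. The Q84E array was the highest, by a log2 ratio of 0.12 over wild-type ATP11A and 0.14 over parental cells, and the other pair differed by 0.021. With a common median the Q84E ratios were -0.020 and -0.0047, so the order of the arrays for Slc7a5 depends on the scaling.

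Slc7a6, or y+LAT2, is the light chain that exchanges cationic for neutral amino acids. Its brighter probe set (1460541_at) gave 1737 in Q84E, 1763 in wild-type ATP11A and 1863 in parental cells, and its other one gave 1038, 1279 and 1155 in the same order. For Q84E over wild-type ATP11A the log2 ratios were -0.022 and -0.30, and for Q84E over parental cells -0.10 and -0.15. Slc7a6 was thus the member with the lowest ratio of Q84E over parental cells, and both of its probe sets had the Q84E array as the lowest of the 3. Slc7a5 and Slc7a6 share their heavy chain, and a difference between 2 ratios does not change when an array is multiplied by a single factor. Relative to Slc3a2, the log2 ratio of Q84E over wild-type ATP11A differed by -0.036 for Slc7a5 and by -0.17 for Slc7a6, each with a probe set error of 0.14 (SD). By these brightest probe sets, neither light chain parted from the heavy chain by more than 2 SD in any comparison. The other probe set of Slc7a6 did so for Q84E over wild-type ATP11A. It was at -0.30 where Slc3a2 was at 0.15, with probe set errors of 0.17 and 0.099 (SD).

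Slc7a11, or xCT, is the light chain that imports cystine in exchange for glutamate and feeds glutathione synthesis. It was dim here: the brighter probe set (1420413_at) had signals of 209 in Q84E cells, 191 in wild-type ATP11A cells and 152 in parental cells. It had the widest range of the 9 genes over the 3 arrays, 0.46 on the log2 scale, with parental cells lowest. For Q84E over parental cells the log2 ratio was 0.46, for wild-type ATP11A over parental cells 0.33, and between Q84E and wild-type ATP11A cells 0.13. The first became 0.32 with quantile normalization and 0.31 with a common median, and the last became 0.0035 and -0.0099. At this brightness the error of 1 ratio is 0.33 to 0.35 (SD), so no pair of the 3 arrays differed beyond 2 SD. The dimmer probe set had the same order, 68.1 in Q84E, 50.2 in wild-type ATP11A and 30.4 in parental cells, but the wild-type ATP11A and parental signals lay under the floor of 50.5 and 50.3, the 50th percentile of their arrays. Its log2 ratio was at least 0.43 for Q84E over wild-type ATP11A and at least 0.44 for Q84E over parental cells. Without the floor, its ratios were 0.44 for Q84E over wild-type ATP11A, 0.72 for wild-type ATP11A over parental cells and 1.16 for Q84E over parental cells, and 0.30, 0.74 and 1.04 with quantile normalization. The last 2 of each set are past 1.5-fold but rest on signals under the floor, and the brighter probe set did not reach 1.5-fold.

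The promoter of Slc7a11 is shown because this gene had the widest range and holds the sequence that ATF4 and C/EBP proteins are known to bind. The 250 bases before its annotated start lie at chr3:50443614-50443863 on the minus strand of GRCm38.p6, from RefSeq. Capitals mark matches to the composite element TGATGNAA or its reverse complement TTNCATCA, here at -66 to -59 and, on the opposite strand, at -47 to -40 relative to the start. The promoter of Slc38a2, another gene known to respond to amino acid starvation, is shown beside it, at chr15:96699729-96699978 on the minus strand. It holds no match to that element, and its capitals mark a match to the antioxidant response core TGACNNNGC at -27 to -19.
Slc7a11: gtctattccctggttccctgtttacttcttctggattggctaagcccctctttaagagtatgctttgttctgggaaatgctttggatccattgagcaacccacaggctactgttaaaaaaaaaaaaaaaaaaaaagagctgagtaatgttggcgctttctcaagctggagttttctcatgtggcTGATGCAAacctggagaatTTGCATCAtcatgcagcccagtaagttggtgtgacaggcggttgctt
Slc38a2: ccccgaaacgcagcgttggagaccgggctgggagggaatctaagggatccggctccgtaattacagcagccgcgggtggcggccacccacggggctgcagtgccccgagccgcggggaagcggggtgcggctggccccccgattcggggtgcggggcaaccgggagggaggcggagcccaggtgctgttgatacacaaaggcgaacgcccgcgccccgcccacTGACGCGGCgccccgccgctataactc

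Of the 9 genes, 6 had promoters in the RefSeq table used here, with 8 windows among them, since Slc7a1 and Slc7a6 have several starts. The composite element was found in 1 of the 8 windows, that of Slc7a11, against 3.45% of the 32851 windows of all genes. The antioxidant response core was found in 3, of Slc7a1, Slc7a6 and Slc38a2, against 10.2% of all windows, and the E-box CACGTG that MYC can bind in 0, against 6.02%. Both strands were searched, and no 2 matches overlapped in these windows. A match is a description of the letters, and the arrays give no measure of binding.

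Slc7a1, or CAT-1, takes up arginine and lysine. The brightest of its 3 probe sets (1454991_at) had signals of 7347 in Q84E cells, 6225 in wild-type ATP11A cells and 6202 in parental cells. The second gave 3905, 3403 and 3599, and the third, close to the floor, gave 110, 118 and 94.9. The Q84E array was the highest for both bright probe sets, at log2 ratios of 0.24 and 0.20 over wild-type ATP11A cells and 0.24 and 0.12 over parental cells. By the authors' scaling Slc7a1 was the only 1 of the 9 genes whose brightest probe set differed by over 2 SD of the probe set error. It did so for Q84E over wild-type ATP11A, where 9.11% of 9607 genes above the floor on all arrays were as far above 0, and for Q84E over parental cells, where 10.9% were. No member was over 2 SD lower, against 5.87% and 7.52% of genes in those comparisons. For wild-type ATP11A over parental cells 0 of 9 members passed in either direction, against 5.95% higher and 5.66% lower. With a common median the 2 ratios of the brightest probe set of Slc7a1 were both 0.10, within 2 SD. The second probe set then gave 0.062 and -0.025, so the Q84E array was no longer its highest. With quantile normalization the ratios of the brightest were 0.27 and 0.29. Those scalings also moved other members past 2 SD: with quantile normalization Slc3a2 was higher in Q84E than in wild-type ATP11A cells, and with a common median Slc38a1 was lower there and Slc7a6 was lower in Q84E than in parental cells.

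**Figure D2:**
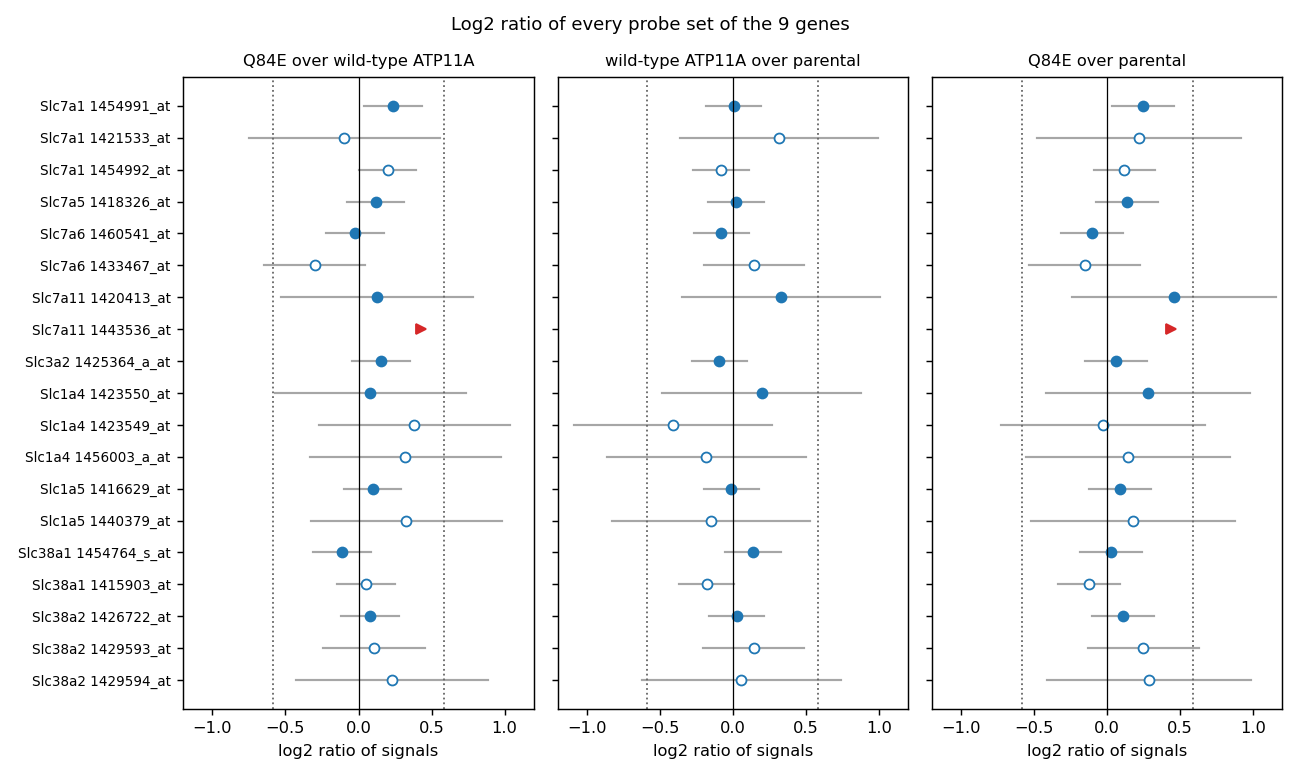
Log2 ratio of signals for each of the 19 probe sets (rows) in the 3 comparisons (panels). Filled points are the probe set that stands for the gene, open points the others, bars are 2 SD of the probe set error to each side, red triangles are lower bounds, dotted lines mark 1.5-fold, and a pair under the floor on both arrays has no point. All measured points lie between -0.41 and 0.46.

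Among the sodium-coupled carriers, Slc1a5, or ASCT2, is a main entry route for glutamine. Its bright probe set (1416629_at) gave 3856 in Q84E, 3607 in wild-type ATP11A and 3631 in parental cells, and the dim one gave 249, 198 and 220. Both had the Q84E array highest and the wild-type ATP11A array lowest, but the largest log2 ratio of the bright one was 0.096, about 1 SD of the error, and it became -0.041 with a common median. Slc1a4, or ASCT1, carries alanine, serine and cysteine. Its 3 probe sets had similar signals, at 332, 298 and 319 in Q84E cells, 314, 229 and 255 in wild-type ATP11A cells, and 274, 304 and 290 in parental cells. They did not give one order: for wild-type ATP11A over parental cells the log2 ratios were 0.20, -0.41 and -0.18, so no direction can be given for this gene. For Q84E over wild-type ATP11A they were 0.080, 0.38 and 0.32, all above 0 and all within 2 SD of an error of 0.33, and the first, of the brightest probe set, became -0.056 with a common median and -0.013 with quantile normalization.

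Slc38a2, or SNAT2, is the carrier that cells raise when amino acids run short. Its 3 probe sets had signals of 7098, 1244 and 141 in Q84E cells, 6714, 1157 and 120 in wild-type ATP11A cells, and 6595, 1048 and 116 in parental cells. All 3 gave the same order of arrays, with Q84E highest and parental lowest. The log2 ratios were small, at 0.080, 0.11 and 0.23 for Q84E over wild-type ATP11A and 0.11, 0.25 and 0.29 for Q84E over parental cells, each within 2 SD. With a common median the brightest gave -0.057 and -0.037, so its order is not kept. Slc38a1, or SNAT1, brings in glutamine and alanine. Its probe sets gave 5769 and 3990 in Q84E cells, 6239 and 3849 in wild-type ATP11A cells, and 5670 and 4359 in parental cells. They opposed each other: wild-type ATP11A cells were highest by the brighter one, which is of the kind that can share sequence with related transcripts, and lowest by the other. The log2 ratios were -0.11 and 0.052 for Q84E over wild-type ATP11A and 0.14 and -0.18 for wild-type ATP11A over parental cells, and in each comparison the 2 probe sets differed from each other by more than either differed between the arrays.

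Taken by the brightest probe set of each gene, the 9 members had a median log2 ratio of 0.096 for Q84E over wild-type ATP11A, with 7 above 0, beside a median of 0.046 over all genes compared. Over parental cells the Q84E median was 0.11, with 8 above 0, beside 0.068, and for wild-type ATP11A over parental cells it was 0.021, with 6 above 0, beside 0.0057. A common median for the arrays moved the median of all genes to -0.091 and -0.075 in the 2 Q84E comparisons. It turned the members' medians to -0.041 and -0.037, with 2 and 3 of 9 above 0. With quantile normalization the members' medians were 0.12 and 0.15, with 6 and 8 above 0, beside 0.000 and 0.0019 over all genes. The sign of these shifts thus depends on the scaling, while the members' median lay above that of all genes compared under all 3. Without the filter on low values, the median over all genes was 0.14 in both Q84E comparisons, beside 0.096 and 0.11 for the members. That 0.14 is only the ratio of the floors of the 2 arrays, so the members' place below it bears on nothing. For wild-type ATP11A over parental cells the members' median was 0.0055 beside 0.0072 with a filter at the 75th percentile. The 2 comparisons share the Q84E array and are not separate results.

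**Figure D3:**
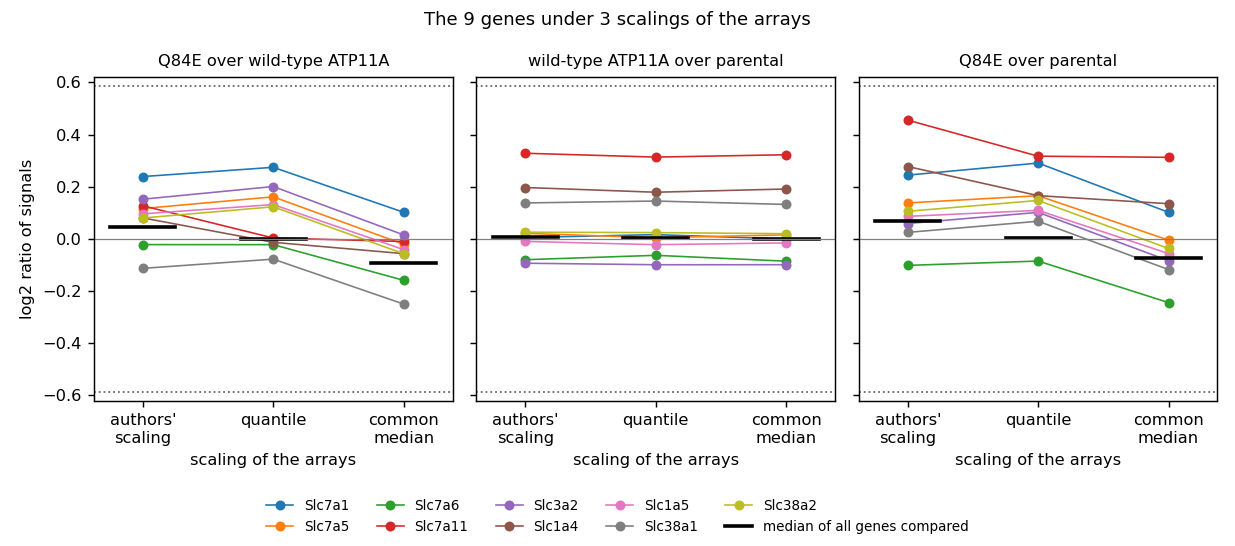
Log2 ratio of the 9 genes, each by its brightest probe set (coloured lines), under the authors' scaling, quantile normalization and a common median, for the 3 comparisons. Black bars are the median of all genes compared and dotted lines mark 1.5-fold. For Q84E over wild-type ATP11A the members' median goes from 0.096 through 0.12 to -0.041.

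By their order over the arrays, 13 of the 19 member probe sets were highest on the Q84E array, while 3 peaked in wild-type ATP11A cells and 3 in parental cells. Over all 17670 named probe sets above the floor on all 3 arrays the Q84E array was highest for 42.4%. With quantile normalization these figures were 12 of 19 and 35.4%, and with a common median 4 of 19 and 22.9%. The member counts include the dimmer Slc7a11 probe set, highest in Q84E cells and under the floor on the other 2 arrays. The shares over all probe sets leave such probe sets out, so counts and shares are not like for like. The spread among the members does not depend on a single scaling factor. The 6 members at or above the 90th percentile on all arrays (Slc7a1, Slc7a5, Slc3a2, Slc1a5, Slc38a1 and Slc38a2) had an SD of log2 ratios of 0.12 for Q84E over wild-type ATP11A cells, 0.074 for wild-type ATP11A over parental cells and 0.076 for Q84E over parental cells. Over all 2629 genes that bright the SD was 0.16, 0.14 and 0.20. The largest log2 ratio of those 6 members, 0.24 for Slc7a1 in both Q84E comparisons, was at least as large in size as that of 88.8% of the bright genes for Q84E over wild-type ATP11A and of 81.3% for Q84E over parental cells.

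The genes whose pattern over the 3 arrays was most like that of Slc7a11 were Smim10l1, Slc50a1, Pigbos1 and Sugp1, at Euclidean distances of 0.0087 to 0.013 between log2 levels centred on each gene's mean. With 3 arrays such likeness is common: 178 of the 6892 genes searched lay within 0.1 of Slc7a11, and 38 within 0.05. Smim10l1 had signals of 527 in Q84E, 478 in wild-type ATP11A and 383 in parental cells. Slc50a1, a sugar transporter, had 1169, 1060 and 851 in the same order.

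The closest relatives of the members were the other genes of the Slc1, Slc3, Slc7 and Slc38 families. Of 24 with a probe set, 13 passed the filter on low values, which a gene can pass through 1 array alone. By the authors' scaling 0 of the 13 was at least 1.5-fold higher or lower in any comparison. Over all genes 5.78% were higher and 1.97% lower for Q84E over wild-type ATP11A, so for 13 genes a count of 0 is near that share. In Q84E over parental cells 1 of the 13 was higher and 1 lower with quantile normalization, and 0 and 1 with a common median. Slc7a3, or CAT-3, another carrier of cationic amino acids, had signals of 4142 in Q84E, 3072 in wild-type ATP11A and 2762 in parental cells. Its log2 ratio was 0.43 for Q84E over wild-type ATP11A and 0.58 for Q84E over parental cells, just under the limit. Slc7a7, or y+LAT1, a light chain of CD98 like Slc7a6, had 2581, 1911 and 2090, a log2 ratio of 0.43 for Q84E over wild-type ATP11A, with 0.49 by its other probe set. Slc38a9, the lysosomal arginine sensor, was at 0.41 by its brightest probe set, while its 6 others ranged from -0.11 to 0.61. Slc38a10 was at 0.16, and 5 others of its probe sets ranged from -0.089 to 0.46.

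Of 19 amino acid transporters of other families, 2 were at least 1.5-fold higher in Q84E than in wild-type ATP11A cells and 3 lower, beside 5.78% and 1.97% of all genes, and 1 and 5 with quantile normalization or a common median. Only 10 of the 19 reached the 75th percentile on at least 1 array, against 7 of the 9 members, and dim probe sets have the larger error. Slc6a9, the glycine transporter GlyT1, had signals of 759 in Q84E, 437 in wild-type ATP11A and 483 in parental cells, a log2 ratio of 0.80 for Q84E over wild-type ATP11A, with 0.38 by its other probe set. Slc6a13, which carries GABA, had 254, 932 and 2595, so it was lower in both DKO lines, at -3.35 for Q84E over parental cells. Slc43a2, or LAT4, which lets branched-chain amino acids out, was lowest in wild-type ATP11A cells, at signals of 329, 272 and 467. Slc25a15, the mitochondrial ornithine carrier, was at -0.33 for Q84E over wild-type ATP11A, with -0.79, past 1.5-fold, by its other probe set.

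The ATF4 amino acid response, to which several transporters belong, was examined next. Of 22 genes compared, 5 were at least 1.5-fold higher in Q84E than in wild-type ATP11A cells and 1 lower. Over all genes these shares were 5.78% and 1.97%. The median log2 ratio of the 22 was 0.18, beside 0.046 over all genes. With a common median the count was 2 and 1 and the median 0.042, beside -0.091. Ddit4, an inhibitor of mTORC1, had signals of 5991 in Q84E, 2261 in wild-type ATP11A and 1562 in parental cells, a 2.65-fold difference between the first 2 lines. Sesn2, a leucine sensor that restrains mTORC1, had 515, 292 and 367, a log2 ratio of 0.82, with 0.49, under 1.5-fold, by its other probe set. Nupr1, a stress-induced chromatin protein, had 1222, 870 and 422, and Atf5, a factor induced with ATF4, had 636, 647 and 311, so Atf5 was higher in both DKO lines and level between them. For Q84E over wild-type ATP11A the remaining genes at least 1.5-fold higher were Chac1, which degrades glutathione, at 0.68, Cth, which makes cysteine, at 0.61, and Stc2 at 0.61. The lower one was Ddit3, which encodes CHOP, at -0.71. For wild-type ATP11A over parental cells 2 of 22 were higher, Atf5 and Nupr1, beside 3.51% of all genes. For Q84E over parental cells 6 of 22 were higher, beside 7.36% of all genes, and 3 with a common median. The 6 were Ddit4, Nupr1, Atf5, Stc2, Cth and Pck2, the last at 0.69. Beside these, Slc7a11, Slc38a2, Slc7a5 and Slc3a2 stayed under 1.5-fold.

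Of 19 cytosolic aminoacyl-tRNA synthetases, which load amino acids onto tRNA, 0 differed 1.5-fold in any comparison. All 19 reached the 75th percentile on at least 1 array, and of the 6892 genes that did, 2.02% were that much higher and 0.595% lower for Q84E over wild-type ATP11A, so a count of 0 is near that background. Their log2 ratios lay between -0.25 and 0.26. Nars, the asparaginyl synthetase, had signals of 11374 in Q84E, 10160 in wild-type ATP11A and 9554 in parental cells. Cars, for cysteine, was at 0.20 for Q84E over wild-type ATP11A, with -0.53 by its other probe set. In the same comparison Wars, for tryptophan, and Farsa, a subunit of the phenylalanine enzyme, were at -0.052 and -0.22. The 2 other probe sets of Farsa were at -0.19 and 0.51.

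For amino acid sensing by mTORC1, 30 genes were compared. In Q84E over wild-type ATP11A cells 1 was at least 1.5-fold higher, Sesn2, and 1 lower, Rragd, a Rag GTPase, at -0.74. By its other probe set Sesn2 was under the limit, at 0.49. Over all genes 5.78% were higher and 1.97% lower. With a common median the count among the 30 was 1 and 2. For Q84E over parental cells 1 was higher and 4 lower, beside 7.36% and 2.94% of all genes. Mlst8, a subunit of mTOR complexes, was at 0.63 and Rragd at -1.06. Castor1, the arginine sensor, was at -0.61, Fnip1 at -0.65 and Tsc2, an inhibitor of mTORC1, at -0.62. With quantile normalization or a common median the count was 0 and 4. Mtor itself had signals of 1241 in Q84E, 913 in wild-type ATP11A and 1001 in parental cells, a log2 ratio of 0.44 for Q84E over wild-type ATP11A. Lamtor3, part of the lysosomal anchor of mTORC1, was at -0.43 for wild-type ATP11A over parental cells.

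Next came 16 genes of cystine use, glutathione and the NRF2 response. In Q84E over wild-type ATP11A cells 1 was at least 1.5-fold higher, Chac1, and 0 lower, beside 5.78% and 1.97% of all genes. With a common median the count was 0 and 0. For Q84E over parental cells 1 was higher, Chac2, at 0.60, and 1 lower, the heme oxygenase gene Hmox1, at -0.92. Over all genes 7.36% were higher and 2.94% lower. The higher one of the 16 was lost with a common median. Gclc, the catalytic subunit that starts glutathione synthesis, had signals of 1275 in Q84E, 1590 in wild-type ATP11A and 1656 in parental cells. Gss, the second enzyme, was at -0.32 for Q84E over wild-type ATP11A, with -0.011 by its other probe set.

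Genes that use glutamine, branched-chain amino acids and arginine had a median log2 ratio of -0.20 for Q84E over wild-type ATP11A. Of 15, 12 were below 0 and 0 at least 1.5-fold apart. Over all genes the median was 0.046, 4862 of 11596 were below 0, and 5.78% were at least 1.5-fold higher and 1.97% lower. With a common median 14 of the 15 were below 0, beside 7349 of 11596. The median of the 15 genes was -0.18 with quantile normalization and -0.34 with a common median. Got1, the cytosolic aspartate transaminase, had signals of 2413 in Q84E, 3225 in wild-type ATP11A and 3483 in parental cells. Bcat1, which starts the breakdown of the leucine that Slc7a5 imports, had 4107, 4825 and 5287, with all 3 probe sets below 0. Glul, glutamine synthetase, had 1265, 1556 and 1664, a log2 ratio of -0.30, with -0.32 by its other probe set. In the opposite direction, Bckdha, a subunit of the branched-chain keto acid dehydrogenase, had 624, 442 and 349. It was the 1 gene of the list at least 1.5-fold higher in Q84E than in parental cells, at 0.84. Over all genes 7.36% were. For wild-type ATP11A over parental cells the median of these 15 genes was 0.043.

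Of 13 regulators and partners of the transporters, 0 differed 1.5-fold in any comparison. Of the 13, 12 reached the 75th percentile on at least 1 array. Over the 6892 genes that did, 2.02% were that much higher and 0.595% lower for Q84E over wild-type ATP11A. A count of 0 is near that background. Mxi1, an antagonist of MYC, had signals of 1578 in Q84E, 1309 in wild-type ATP11A and 1221 in parental cells, and Max, the partner of MYC, had 1438, 1803 and 1631. Nedd4, a ubiquitin ligase, had 12156, 11241 and 10010. Its log2 ratio was 0.28 for Q84E over parental cells, but its 2 other probe sets ranged from -0.024 to 0.059. Eif2ak3, a kinase upstream of ATF4, was at 0.32 for Q84E over parental cells, but at 0.046 by its other probe set.

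**Figure D4:**
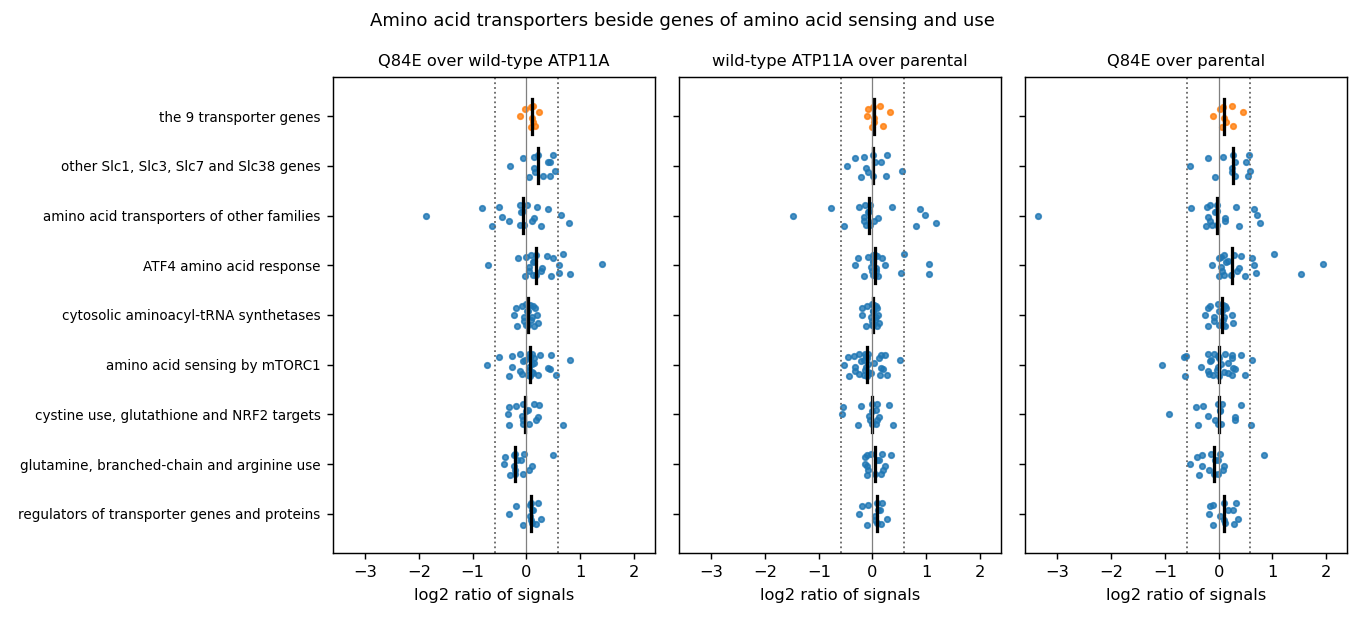
Log2 ratio of signals of the compared genes (points) in the 9 transporter genes (orange, top row) and in 8 related lists (blue), with the median of each list as a black bar and dotted lines at 1.5-fold, under the authors' scaling. Levels under the floor were set to it. The transporters and the aminoacyl-tRNA synthetases lie inside the dotted lines in all 3 panels, and Slc6a13 is the point furthest to the left.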

How the data were processed

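Each deposited value is a linear intensity, the signal of a probe set. According to the submitters' processing notes it was made with MAS5, of which the sources used here give neither version nor settings. Per the labels, cRNA came from 250 ng of total RNA. The deposited arrays share a trimmed mean of 500.0 (2% left out at each end), and this scaling was kept. Gene names came from the platform's annotation table (34958 probe sets with 1 symbol, 932 with several, 9211 not listed and unnamed here). The 19 member probe sets matched RefSeq (GRCm38.p6) by Entrez identifier.

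The probe set of highest mean log2 signal stood for its gene, which was compared if that probe set reached the 50th percentile on at least 1 array. Signals under that percentile (55.5 for Q84E, 50.5 for wild-type ATP11A, 50.3 for parental) were set to it, and ratios against them are bounds. A log2 ratio is the difference of 2 log2 levels, and genes were counted at 1.5-fold. With 1 array per group there was no test. The probe set error came from the 2 brightest probe sets of 848 to 1439 genes per band of signal. The counting of genes past 1.5-fold was tried on simulated data, with changes planted only in genes reaching the 75th percentile and none of them at 1.5-fold. That trial does not bear on dimmer genes such as Slc7a11 and Slc1a4 or on changes at the limit. Python 3.11.15, numpy 2.4.6, pandas 2.3.3 and matplotlib 3.10.9 were used. The members and the gene lists were chosen with earlier results of these data known. Of 218 listed symbols, 204 had a named probe set. All 9 members and, per list, the 4 genes with the largest ratio among those reaching the 75th percentile on at least 1 array were named, as were the 4 genes most like the member of widest range. Genes named to spell out a count, such as Rragd, Cth or Hmox1, were picked after their values were seen. The alternatives were other scalings, floors, filters, probe set choices and a 2-fold limit.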

Additional observations from a re-analysis of the deposited data

How the results depend on the processing

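No paired analysis was possible because each group has a single array, and for the same reason no replicate could be left out. The count of members at least 1.5-fold apart stayed at 0 in both directions and all 3 comparisons with quantile normalization, a common median, no floor and a pseudocount of 16, the mean of all probe sets, and without the less specific probe sets. A 2-fold limit, a floor at the 25th percentile, no filter and a filter at the 75th percentile (which leaves 7 of the 9 members) could not change it, since no member's brightest probe set lay under the floor. The median log2 ratio of the members changed sign with a common median for the arrays, to -0.041 for Q84E over wild-type ATP11A and -0.037 for Q84E over parental cells, since that scaling multiplies the whole Q84E array by a lower factor. Of 210 ratios of single members under the alternatives, 105 were left exactly as they were by the setting and bear on nothing. Of the 105 that changed, 82 moved by less than 1 SD of the probe set error and 23 by more: 14 with a common median, 6 with the mean of all probe sets and 3, all of Slc38a1, without the less specific probe sets. Signal over background limits Slc7a11 and Slc1a4, which lay under the 75th percentile on every array.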
